A study of Mus musculus with 8 samples.

Results

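The measurements described here concern 10 genes of acetylcholine signalling in the right cerebral cortex of mice: 5 subunits of nicotinic receptors (Chrna4, Chrna5, Chrna7, Chrnb2 and Chrnb3), 4 muscarinic receptors (Chrm1, Chrm2, Chrm3 and Chrm4) and acetylcholinesterase (Ache). They were taken by symbol from the 54752 genes in the count tables, as a list drawn up with earlier results of these data known, and all 10 passed the filter on low counts. RNA-seq libraries were made 3 weeks after surgery from 4 Sham and 4 BCAS mice, each library from 1 mouse. All mice were male wild-type C57BL/6 (C57BL/6 J in the methods of the study), supplied at 10 to 11 weeks of age and listed as 14 weeks old when sequenced. BCAS (bilateral carotid artery stenosis) mice carried a wire microcoil around each common carotid artery, with an inner diameter of 0.16 mm on the right and 0.18 mm on the left, whereas Sham mice had the operation without coils. The tissue therefore came from the side with the narrower coil, and no group tested a milder stenosis.

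Acetylcholine reaches the cortex mainly from neurons of the basal forebrain. Nicotinic receptors are ion channels built of several subunits, with alpha4 and beta2 forming the most common type in brain and alpha7 forming channels on its own, while alpha5 and beta3 are accessory subunits that join alpha4 or alpha6 channels. Muscarinic receptors are single proteins that act through G proteins: M1 and M3 through Gq, which activates phospholipase C, and M2 and M4 through Gi/o, which inhibits adenylyl cyclase. Acetylcholinesterase ends the signal by splitting acetylcholine at the synapse.

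Upstream sequences are shown for Chrna4 and Chrm3, which were lower in BCAS mice, and for Chrm4, which did not pass the test. A link between these sequences and the levels of the genes was not tested. The sequences are taken from RefSeq windows that end at a gene's start, on build GRCm38.p6. Windows were found for 8 of the 10 genes, all but Chrnb3 and Chrm1, and any bases in annotated exons were left out of the stretches printed. The Chrna4 stretch (chr2:181039306-181039427, minus strand) lies in an intron of the longer transcripts of that gene. The Chrm3 stretch (chr13:10360848-10361053, minus strand) lies directly before the annotated gene, and the Chrm4 stretch (chr2:91921939-91922188, plus strand) lies before the RefSeq start and holds no annotated exon. Capitals mark the GC box, GGGCGG on either strand, where copies may overlap.
Chrna4: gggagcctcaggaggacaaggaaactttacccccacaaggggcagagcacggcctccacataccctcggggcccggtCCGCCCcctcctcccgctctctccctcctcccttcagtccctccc
Chrm3: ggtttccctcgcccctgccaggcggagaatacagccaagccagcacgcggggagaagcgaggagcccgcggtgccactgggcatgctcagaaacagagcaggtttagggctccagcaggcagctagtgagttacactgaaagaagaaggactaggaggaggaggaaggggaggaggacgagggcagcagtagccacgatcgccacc
Chrm4: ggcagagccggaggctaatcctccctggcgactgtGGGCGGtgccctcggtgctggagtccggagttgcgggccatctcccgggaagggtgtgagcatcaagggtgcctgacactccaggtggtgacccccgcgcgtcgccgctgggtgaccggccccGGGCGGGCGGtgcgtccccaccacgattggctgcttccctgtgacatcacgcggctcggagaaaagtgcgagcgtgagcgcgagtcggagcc

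In the full windows of 250 bases, with the exon bases included, Chrna4 was 74.4% G or C and held 3 GC boxes, Chrm3 was 61.2% G or C and held none, and Chrm4 was 70% G or C and held 3. The printed stretch of Chrna4, 122 bases long, holds 1 of its 3. Over all 32851 RefSeq windows of this length, 32.7% held a GC box and the median G and C content was 52.4%. None of the 3 full windows held TATAAA on either strand (present in 12.4% of all windows) or the cyclic AMP response element TGACGTCA (1.55%). The absence of these letters concerns these windows only.

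Library totals ran from 16759364 to 21794435 counts. The tissue label was checked against 7 genes of cortical excitatory neurons, whose summed level was 6266 to 7975 CPM (normalized counts scaled to a library size of 1000000) in Sham and 2386 to 5590 CPM in BCAS libraries. Pan-neuronal genes (14, such as Rbfox3, Snap25 and Syt1) gave a median of -0.73 for the log2 fold change, 9 being lower and none higher at an edgeR adjusted p under 0.05, the rule by which 12.8% of all tested genes were lower and 19.2% higher. As log2 relative to the Sham mean, BCAS mice 1 to 4 had list means of -1.52, -0.32, -0.66 and -0.71, so BCAS mouse 1 stood lowest and BCAS mouse 2 highest. All 9 microglial genes were higher by this rule, with a median log2 fold change of 3.05. There were 2 libraries that stood apart in markers of neighbouring tissue: the 5 choroid plexus genes summed to 773 CPM in Sham mouse 3 against 32.8 to 70.3 CPM in BCAS mice, and 7 genes of basal forebrain cholinergic neurons summed to 66.1 CPM in BCAS mouse 4 against 6.42 to 12.9 CPM in Sham mice. Within their own groups, the lowest sums were 14.8 CPM for choroid plexus in Sham and 10.9 CPM for basal forebrain in BCAS mice. In bulk tissue, fewer cells of a type and less RNA per cell cannot be told apart.

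The first question was which of the cholinergic genes differed between Sham and BCAS cortex. Of the 10 genes, 4 were lower after BCAS, with an adjusted p under 0.05 (edgeR quasi-likelihood test, Benjamini-Hochberg over 17136 tested genes): the nicotinic subunits Chrna4 and Chrnb3 and the muscarinic receptors Chrm2 and Chrm3. None was higher. Over all tested genes, 12.8% were lower and 19.2% higher, against 40% and 0 of the cholinergic genes. With the added threshold of a log2 fold change below -1, Chrnb3 and Chrm3 remained, where 1.28% of all tested genes were called. All 10 estimates were below 0 on this TMM scale, with a median log2 fold change of -0.73, while the median over all tested genes was -0.01. In 6 of the 10 genes every BCAS mouse lay below every Sham mouse, which was so for 16.3% of all tested genes. A further 4 genes had an unadjusted p under 0.05 but missed the adjusted threshold, and DESeq2 called those 4 as well, 8 in all, where it called 18.2% of all tested genes lower. The count of 4 ranged from 1 to 8 when 1 library was left out: Chrnb3 alone remained without Sham mouse 1, 2 or 4, where 2.37% to 3.09% of all tested genes were lower, and 8 were called without BCAS mouse 2 (20.9%).

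**Figure D1:**
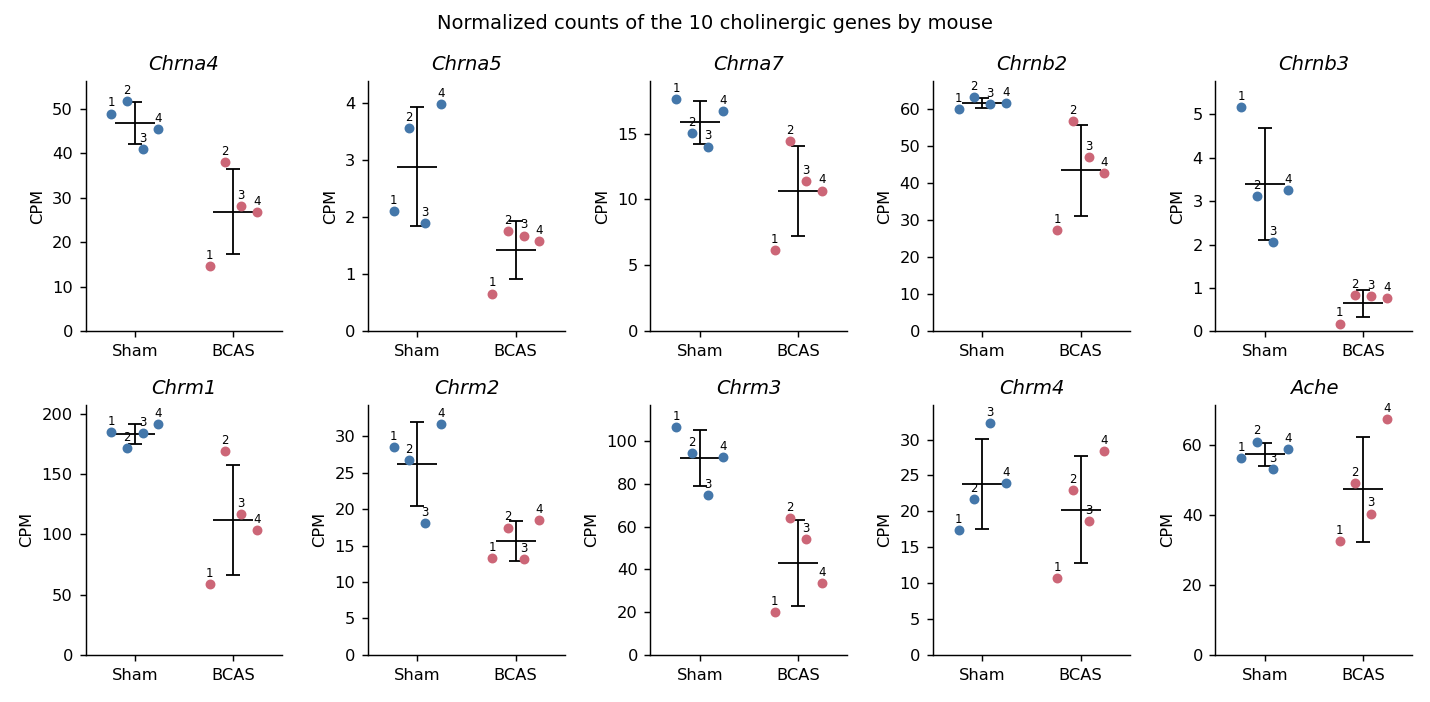
Normalized counts (CPM, vertical axis from 0, its range set for each gene) of the 10 cholinergic genes in 4 Sham and 4 BCAS mice. Points are mice, numbered 1 to 4 within each group, horizontal lines are group means and bars are 1 SD. BCAS mouse 1 was the lowest BCAS mouse in 9 of the 10 genes, and in Chrna4, Chrna5, Chrnb2, Chrnb3, Chrm1 and Chrm3 the groups did not overlap.

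Chrnb3, which encodes the accessory beta3 subunit and lies at chr8:27368711-27399730 on the plus strand, showed the largest decrease of the 10. Sham mice 1 to 4 gave 91, 50, 36 and 54 reads of it, against 4, 16, 15 and 14 reads from BCAS mice 1 to 4. The highest BCAS mouse, at 0.824 CPM, lay below the lowest Sham mouse, at 2.06 CPM. The mean was 3.40 ± 1.30 CPM in Sham and 0.643 ± 0.313 CPM in BCAS mice (SD, n = 4 each), a log2 fold change of -2.41 (SE 0.46, edgeR adjusted p = 0.00734), or 18.8% of the Sham level. Among the 2199 genes that were lower at an adjusted p under 0.05, Chrnb3 ranked 3 by size of decrease. It stayed lower when any 1 of the 8 libraries was left out, with log2 fold changes from -2.59 to -2.07. Each BCAS value rests on 16 counts or fewer, and per length it was also the least abundant of the 10 genes.

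Chrna4 encodes the alpha4 subunit, the principal partner of beta2 (chr2:181018380-181043546, minus strand). Sham mice 1 to 4 held 48.9, 51.8, 41.0 and 45.5 CPM, compared with 14.6, 38.0, 28.1 and 26.7 CPM for BCAS mice 1 to 4. All 4 BCAS mice lay below all Sham mice, and BCAS mouse 1 lay far below the rest. The log2 fold change was -0.80 (SE 0.24, edgeR adjusted p = 0.0342), or 57.3% of the Sham level. The call was lost when any 1 Sham mouse, BCAS mouse 3 or BCAS mouse 4 was left out, with adjusted p-values up to 0.0872.

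Chrnb2, the beta2 subunit (chr3:89746195-89764632, minus strand), was nearly level among Sham mice, at 59.9, 63.1, 61.2 and 61.6 CPM. In BCAS mice 1 to 4 it was at 27.2, 56.7, 46.9 and 42.7 CPM. Every BCAS value was below every Sham value, yet the distance of BCAS mouse 2 from the Sham mice was small. Its log2 fold change of -0.50 (SE 0.19) did not pass the test (edgeR adjusted p = 0.0652), but passed without BCAS mouse 1 (-0.32, adjusted p = 0.0359) or BCAS mouse 2 (-0.65, adjusted p = 0.0110). Of its exon bases, 16.3% are shared with Adar on the opposite strand, and since the counting used no strand, reads there cannot be assigned to either gene.

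Chrna7, which forms channels of alpha7 alone (chr7:63098692-63212569, minus strand), was at 17.6, 15.04, 14.01 and 16.7 CPM in Sham and 6.15, 14.4, 11.4 and 10.7 CPM in BCAS mice. BCAS mouse 2 lay within the Sham range and the other 3 lay below it. The log2 fold change was -0.57 (SE 0.23, edgeR adjusted p = 0.0810), with a 95% interval from -1.09 to -0.06. The accessory subunit Chrna5 (chr9:54980880-55007779, plus strand) was at 2.10, 3.56, 1.89 and 3.98 CPM in Sham and 0.659, 1.75, 1.67 and 1.58 CPM in BCAS mice. The groups did not overlap, though Sham mice 1 and 3 lay close to the higher BCAS mice, and the log2 fold change of -1.03 (SE 0.37) missed the threshold (edgeR adjusted p = 0.0607). Without BCAS mouse 2 both passed, Chrna7 at -0.74 (adjusted p = 0.0168) and Chrna5 at -1.14 (adjusted p = 0.0482), and without BCAS mouse 1 they were at -0.37 and -0.77 and did not.

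Chrm3, the M3 receptor (chr13:9875486-10360847, minus strand), showed the largest decrease of the muscarinic group. Values of 107, 94.5, 74.8 and 92.6 CPM for Sham mice 1 to 4 stood against 19.9, 64.1, 54.3 and 33.5 CPM for BCAS mice 1 to 4. The groups did not overlap, and BCAS mice 1 and 4 were the lowest. The mean went from 92.1 ± 13.1 CPM to 43.0 ± 19.97 CPM (SD, n = 4 each), with a log2 fold change of -1.10 (SE 0.31, edgeR adjusted p = 0.0293), or 46.6% of the Sham level. Leaving out Sham mouse 1, 2 or 4 or BCAS mouse 4 ended the call, with adjusted p-values up to 0.0782.

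Chrm2, the M2 receptor, which on cholinergic terminals acts as an autoreceptor (chr6:36388084-36528414, plus strand), passed the test although its groups overlapped. It was at 28.5, 26.8, 18.1 and 31.6 CPM in Sham and at 13.3, 17.5, 13.2 and 18.5 CPM in BCAS mice. The overlap came from Sham mouse 3, which lay just below BCAS mouse 4. The log2 fold change was -0.75 (SE 0.19, edgeR adjusted p = 0.0200), and the call was lost without Sham mouse 1, 2 or 4 or BCAS mouse 3, with adjusted p-values up to 0.0590.

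Chrm1, the M1 receptor and the most abundant of the 10 genes (chr19:8663789-8683587, plus strand), was at 185, 172, 184 and 192 CPM in Sham and 58.9, 169, 117 and 103 CPM in BCAS mice. BCAS mouse 2 was within 3 CPM of the lowest Sham mouse, and BCAS mouse 1 was the lowest of all. Its log2 fold change of -0.71 (SE 0.26) did not pass the test (edgeR adjusted p = 0.0623), but passed without BCAS mouse 1 (-0.49, adjusted p = 0.0391) or BCAS mouse 2 (-0.96, adjusted p = 0.00471). Chrm4, the M4 receptor (chr2:91927249-91928688, plus strand), was at 17.3, 21.7, 32.3 and 23.9 CPM in Sham and 10.7, 23.0, 18.7 and 28.4 CPM in BCAS mice. The groups overlapped broadly, with a log2 fold change of -0.24 (SE 0.29, edgeR adjusted p = 0.545) and a 95% interval from -0.89 to 0.41.

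Ache (chr5:137287519-137294466, plus strand) was at 56.2, 60.9, 53.1 and 58.7 CPM in Sham mice and at 32.5, 49.1, 40.3 and 67.2 CPM in BCAS mice. BCAS mice 1, 2 and 3 lay below every Sham mouse, and BCAS mouse 4 lay above every Sham mouse. The log2 fold change was -0.28 (SE 0.19, edgeR adjusted p = 0.294), with a 95% interval from -0.71 to 0.16. Without BCAS mouse 4, it was -0.49 and passed the test (edgeR adjusted p = 0.0463), whereas without BCAS mouse 1 it was -0.12 (adjusted p = 0.604).

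The high BCAS mouse in Ache was also the one with the highest levels of basal forebrain and striatal marker genes, whereas the thalamus, hippocampal and medial habenula lists were higher in other libraries. Of the 7 basal forebrain cholinergic genes, 5 were tested, while Lhx8 and Gbx1 did not pass the filter on low counts. Relative to the Sham mean, the 5 tested genes averaged log2 values of 1.19, 0.92, 0.37 and 2.75 for BCAS mice 1 to 4. The highest Sham mouse was at 0.65. The defining transcription factors Lhx8 and Gbx1 had 125 and 130 counts in BCAS mouse 4, against 2 to 7 and 1 to 8 counts in Sham mice. BCAS mouse 1, the lowest BCAS mouse in Ache and Chrm4, came next with 36 and 32 counts. The 8 genes of striatal projection neurons, some of which carry M4 receptors, averaged 0.44, 0.21, 0.21 and 1.41. Their summed level was 284 to 545 CPM in Sham and 421 to 879 CPM in BCAS libraries. Among BCAS mice, Chrm4, Ache and Chrm2 were highest in that same mouse, at 0.29, 0.23 and -0.47 relative to the Sham mean. Without that library Chrm4 had a log2 fold change of -0.45 (edgeR adjusted p = 0.275), against -0.02 without BCAS mouse 1 and -0.06 without Sham mouse 3, which was highest in Chrm4 and in the choroid plexus list. The part of these regions in the values of Ache, Chrm4 and Chrm2 was not tested.

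**Figure D2:**
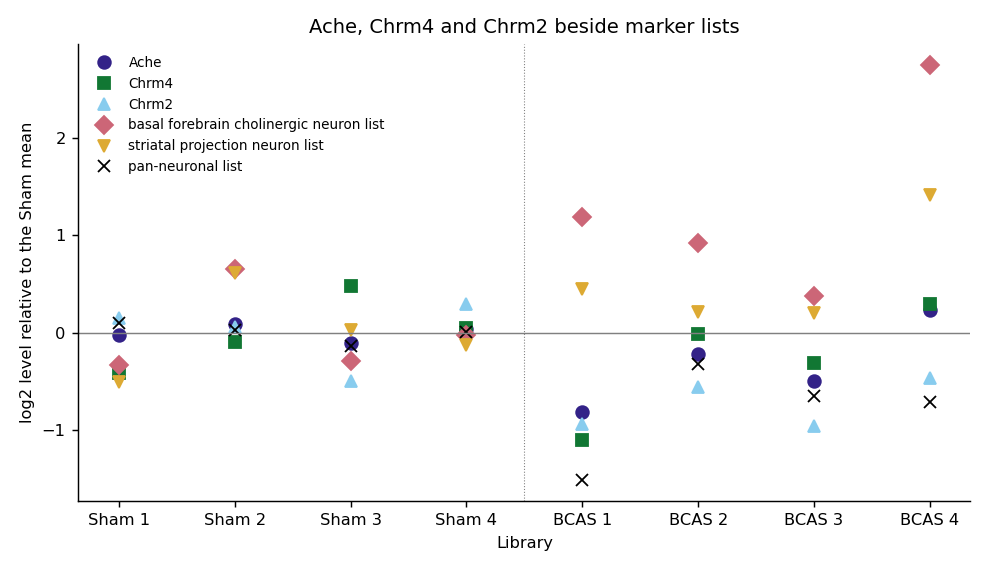
Level of Ache, Chrm4 and Chrm2 and the mean level of 3 marker lists in each library, as log2 relative to the Sham mean (vertical axis), for 4 Sham and 4 BCAS mice (horizontal axis). The basal forebrain mean is over the 5 tested genes of that list. In BCAS mouse 4 the basal forebrain list was at 2.75, the striatal list at 1.41, Chrm4 at 0.29 and Ache at 0.23, while the pan-neuronal list was at -0.71.

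The second question was whether any of the genes differed when neuronal transcripts as a whole were held level. Libraries were rescaled so that the 14 pan-neuronal genes had the same mean in each, which put the median of all tested genes at 0.86 on the log2 scale. On this scale 1 of the 10 genes passed the test: Chrnb3, with a log2 fold change of -1.69 (SE 0.39, edgeR adjusted p = 0.00982). By that rule 0.193% of all tested genes (33) were lower and 62.5% higher. Of the other 9 genes, Chrm3 was at -0.40 (adjusted p = 0.113), Chrna5 at -0.30 and Chrna4 at -0.07. Chrm1 was at 0.00 (SE 0.16), Chrm2 at 0.09, Chrna7 at 0.17 and Chrnb2 at 0.25, each with an adjusted p above that of Chrm3. Chrm4 was at 0.49 (SE 0.29, adjusted p = 0.155) and Ache at 0.52 (SE 0.23, adjusted p = 0.0703). All 10 estimates lay below the median of 0.86 over all tested genes on this scale. Ache also passed, as higher, with excitatory neuron genes held level instead (0.84, adjusted p = 0.0435) and without BCAS mouse 2 (0.64, adjusted p = 0.0286), 2 of 11 alternatives. Chrnb3 passed in each of the 11 alternatives run on the neuronal scale, with log2 fold changes from -1.84 to -1.43.

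**Figure D3:**
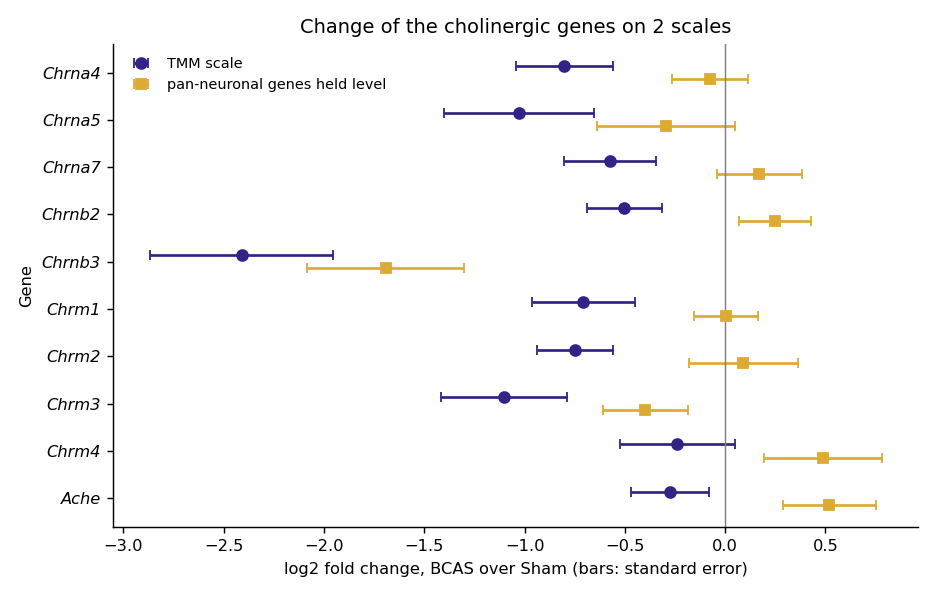
Log2 fold change (BCAS over Sham, horizontal axis) of the 10 cholinergic genes on the TMM scale (circles) and with 14 pan-neuronal genes held level (squares), and bars of 1 standard error. Chrnb3 lay at -2.41 and -1.69, whereas the other 9 genes lay between -1.10 and -0.24 on the first scale and between -0.40 and 0.52 on the second.

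A ratio of 2 genes within a library does not depend on how libraries are scaled. In all, 8 such log2 ratios, of counts per kilobase of exon, were compared with exact two-sided permutation tests, whose smallest possible p with 4 against 4 mice is 0.0286. Chrnb3 to Chrnb2 was -3.13, -3.93, -4.48 and -3.83 in Sham and -6.71, -5.66, -5.41 and -5.36 in BCAS mice. These groups did not overlap, and the mean differed by -1.94 (exact permutation p = 0.0286, adjusted over the 8 ratios p = 0.152). Chrna4 to Chrnb2 averaged 0.34 ± 0.14 in Sham and 0.02 ± 0.13 in BCAS mice (SD, n = 4 each; exact permutation p = 0.0571, adjusted p = 0.152). For Chrm3 to Chrm1 the means were -0.95 ± 0.23 and -1.37 ± 0.23, with the same exact p of 0.0571 and adjusted p of 0.152. Chrm4 to Chrm1 differed by 0.52 (exact permutation p = 0.143) and Ache to Chrm1 by 0.48 (p = 0.229). Differences for Chrna5 to Chrna4, Chrna7 to Chrnb2 and Chrm2 to Chrm1 were -0.16, -0.08 and 0.07, with exact permutation p-values of 0.429 or above. None of the 8 ratios passed after adjustment, which at this number of mice would need at least 5 of them at the smallest p, so that 1 separated ratio could not pass on its own.

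Levels can be compared between genes only per length, here as CPM per kilobase of exon (RPKM). In Sham cortex the order was Chrm1 (28.2 ± 1.28), Chrm4 (16.5 ± 4.36), Chrm3 (14.7 ± 2.09), Ache (12.4 ± 0.721), Chrna4 (9.32 ± 0.924), Chrnb2 (7.33 ± 0.1599), Chrm2 (4.34 ± 0.954), Chrna7 (3.52 ± 0.360), Chrna5 (0.922 ± 0.334) and Chrnb3 (0.534 ± 0.203; RPKM, SD, n = 4 each). In this order Chrm4 overlapped Chrm3, Chrm3 overlapped Ache, Chrm2 overlapped Chrna7 and Chrna5 overlapped Chrnb3, whereas the remaining neighbours did not overlap. The annotation gives Chrm4 a single exon of 1440 bases, while RefSeq places its start upstream of that exon. Its level per length is therefore less sure. That of Chrnb2 is less sure as well, since 16.3% of its exon bases are shared with Adar and its full exon length was used. The lack of overlap between Chrna4 and Chrnb2 may depend on that length. In BCAS cortex Chrm1 and Chrm4 still led, at 17.3 ± 7.01 and 14.02 ± 5.18 RPKM, and Ache (10.2 ± 3.23) stood before Chrm3 (6.87 ± 3.19). There, each of the first 5 genes overlapped the next. Chrna5 and Chrnb3 came last again, at 0.453 ± 0.163 and 0.101 ± 0.0491 RPKM, and no longer overlapped.

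The nicotinic and muscarinic groups were then set against each other, as a description with no test. The 5 nicotinic subunits summed to 22.3, 22.8, 19.5 and 21.9 RPKM in Sham mice and to 7.75, 18.2, 14.4 and 13.4 RPKM in BCAS mice. The 4 muscarinic receptors summed to 62.3, 61.0, 65.7 and 66.2 RPKM in Sham and to 21.9, 55.2, 41.9 and 44.0 RPKM in BCAS mice. In both groups of genes every BCAS mouse lay below every Sham mouse, BCAS mouse 1 was lowest and BCAS mouse 2 highest. The muscarinic sum was 2.96 ± 0.305 times the nicotinic sum in Sham and 3.01 ± 0.200 times in BCAS mice (SD, n = 4 each), and the ranges overlapped. When each gene was given equal weight instead, the nicotinic mean changed by 0.37 log2 units more than the muscarinic mean, at -1.13 against -0.76. Without Chrnb3 the nicotinic change was -0.78 and the gap between the groups -0.01, so the gap rested on this 1 low-count subunit.

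**Figure D4:**
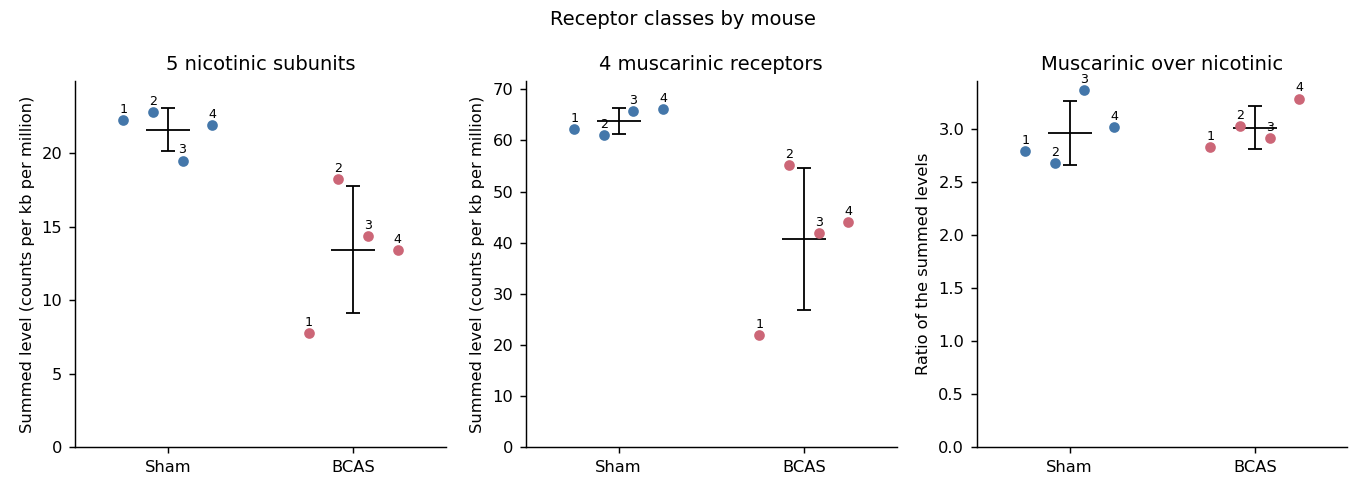
Summed level per length (RPKM) of 5 nicotinic subunits and of 4 muscarinic receptors, and the ratio of the sums, in 4 Sham and 4 BCAS mice. Points are mice, numbered within each group, horizontal lines are means and bars are 1 SD. Both sums were lower in every BCAS mouse than in any Sham mouse, while the ratio was 2.96 ± 0.305 in Sham and 3.01 ± 0.200 in BCAS mice.

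The composition of each group by RPKM varied among mice. Chrna4 made up 43.0% ± 1.77 of the nicotinic sum in Sham and 39.4% ± 1.68 in BCAS mice, and Chrnb2 34.0% ± 2.36 and 39.0% ± 2.04 (SD, n = 4 each). The nicotinic shares depend on the length used for Chrnb2, which includes the bases shared with Adar. Chrna7 took 17.6% to 17.7% in BCAS mice and 14.6% to 17.5% in Sham mice. The share of Chrnb3 was 1.66% to 3.64% in Sham and 0.356% to 0.894% in BCAS mice. In the muscarinic sum, Chrm3 took 23.2% ± 3.89 in Sham and 16.5% ± 3.87 in BCAS mice, and Chrm4 25.8% ± 6.13 and 34.7% ± 7.05. The share of Chrm4 was largest in BCAS mouse 4, at 44.8%, and the share of Chrm1 was smallest there, at 36.1%.

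Other nicotinic subunits had few counts. Of 11, 4 passed the filter (Chrna1, Chrna2, Chrna3 and Chrnb1), and none of them passed the test. Chrna6, the neighbour of Chrnb3 on chromosome 8 with a gap of 3481 bases, had 10, 11, 14 and 4 counts in Sham and 3, 4, 8 and 2 in BCAS mice, too few to be tested. Chrna3, which lies 2331 bases from Chrna5 on chromosome 9, had 18, 14, 19 and 36 counts in Sham and 46, 12, 10 and 10 in BCAS mice. Its own neighbour Chrnb4 had 2, 4, 2 and 24 counts and 36, 7, 2 and 10 counts. Thus, neither of these 2 genes had all BCAS mice below all Sham mice. Chrna10 had 1 to 21 counts in Sham and 4 to 29 in BCAS mice. Chrna9 had 3 counts in Sham mouse 3 alone, Chrne had 2 counts in Sham mouse 2 and 2 in BCAS mouse 4, and the muscle subunits Chrnd and Chrng had 0 in every library, which allows up to 0.187 CPM in the shallowest. The fifth muscarinic receptor, Chrm5, had 1, 3, 11 and 1 counts in Sham and 8, 25, 15 and 10 in BCAS mice and did not pass the test (log2 fold change 1.63, SE 0.71, edgeR adjusted p = 0.101).

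Over all 48 other pathway genes listed, 41 were tested, of which 15 were lower and 6 higher at an adjusted p under 0.05 by edgeR and 20 did not pass, with a median log2 fold change of -0.39. The lower share was 36.6% against 12.8% of all tested genes, and the higher share 14.6% against 19.2%. Leaving out 1 library at a time gave 5 to 21 lower genes, the fewest without Sham mouse 1, and 4 to 8 higher genes. Without BCAS mouse 4 there were 7 lower and 5 higher. The lower share of all tested genes moved as well, to 2.37% without Sham mouse 1 and 4.03% without BCAS mouse 4. With pan-neuronal genes held level, 16 of the 41 were higher and none lower, on a scale where 62.5% of all tested genes were higher.

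Of 5 genes that make and supply acetylcholine 2 were higher and none lower, where 19.2% of all tested genes were higher and 12.8% lower. The 3 that mark cholinergic neurons had their highest counts in BCAS mouse 4. Chat, the synthesizing enzyme, had 19, 28, 14 and 6 counts in Sham and 76, 39, 22 and 175 in BCAS mice (log2 fold change 2.004, SE 0.69, edgeR adjusted p = 0.0511). Slc5a7, the high-affinity choline transporter, had 36, 91, 59 and 52 counts and 177, 103, 92 and 394 counts (1.47, SE 0.51, adjusted p = 0.0544), and the vesicular transporter Slc18a3 had 17, 18, 11 and 21 and 26, 32, 19 and 99 (1.20, SE 0.56, adjusted p = 0.126). None of the 3 passed the test, and all belong to the basal forebrain list that stood out in BCAS mouse 4. Without that library the log2 fold changes of Chat, Slc5a7 and Slc18a3 were 1.13, 0.76 and 0.35. The choline transporter-like genes Slc44a2 (0.89, SE 0.17, edgeR adjusted p = 0.00784) and Slc44a1 (0.49, SE 0.16, adjusted p = 0.0414) were higher.

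Butyrylcholinesterase (Bche), which also splits acetylcholine and is found in glia, was higher, while Ache did not pass the test. It had 197, 210, 153 and 164 counts in Sham and 381, 267, 491 and 581 counts in BCAS mice, with no overlap. The log2 fold change was 1.04 (SE 0.26, edgeR adjusted p = 0.0201), and 0.82 without BCAS mouse 4 (adjusted p = 0.0497). The difference between Bche and Ache was not tested. Among 7 chaperones and Ly6 modulators of nicotinic receptors 3 were lower and none higher, where 12.8% of all tested genes were lower and 19.2% higher. Lynx1, a membrane-bound brake on nicotinic receptors, fell by 1.00 on the log2 scale (SE 0.24, edgeR adjusted p = 0.0183), Lypd6 by 0.50 (SE 0.14, adjusted p = 0.0270) and Ric3, a folding chaperone of alpha7, by 0.38 (SE 0.11, adjusted p = 0.0298).

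In the Gq arm downstream of M1 and M3 receptors, 7 of 9 genes were lower and 1 was higher, where 12.8% of all tested genes were lower and 19.2% higher. The G protein subunit Gnaq was at -0.39 (SE 0.11, edgeR adjusted p = 0.0284), the phospholipases Plcb1 at -0.74 and Plcb4 at -0.88, the calcium channel Itpr1 at -0.83 and the kinase Prkca at -0.70, which had the smallest adjusted p of the pathway (0.00301). In contrast, the phospholipase Plcb3 rose by 1.12 on the log2 scale (SE 0.20, adjusted p = 0.00533). In the Gi/o arm of M2 and M4 receptors, 3 of 9 genes were lower and 2 higher, the latter being near the share of all tested genes. Gnai1 was at -0.68 (SE 0.16, adjusted p = 0.0145) and the potassium channel subunit Kcnj3 at -0.96 (SE 0.24, adjusted p = 0.0185), whereas Gnai2 was at 0.91 (SE 0.18, adjusted p = 0.00946) and Gnai3 at 0.73 (SE 0.16, adjusted p = 0.0128). Of the 3 M-current channels, which M1 receptors close, 2 were lower, and Kcnq5 had the larger decrease of them (-1.04, SE 0.20, edgeR adjusted p = 0.00720). The share of glia in the higher genes was not tested; the microglial list was higher in the same 4 BCAS mice, at 2.10 to 4.04 on the log2 scale relative to the Sham mean.

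**Figure D5:**
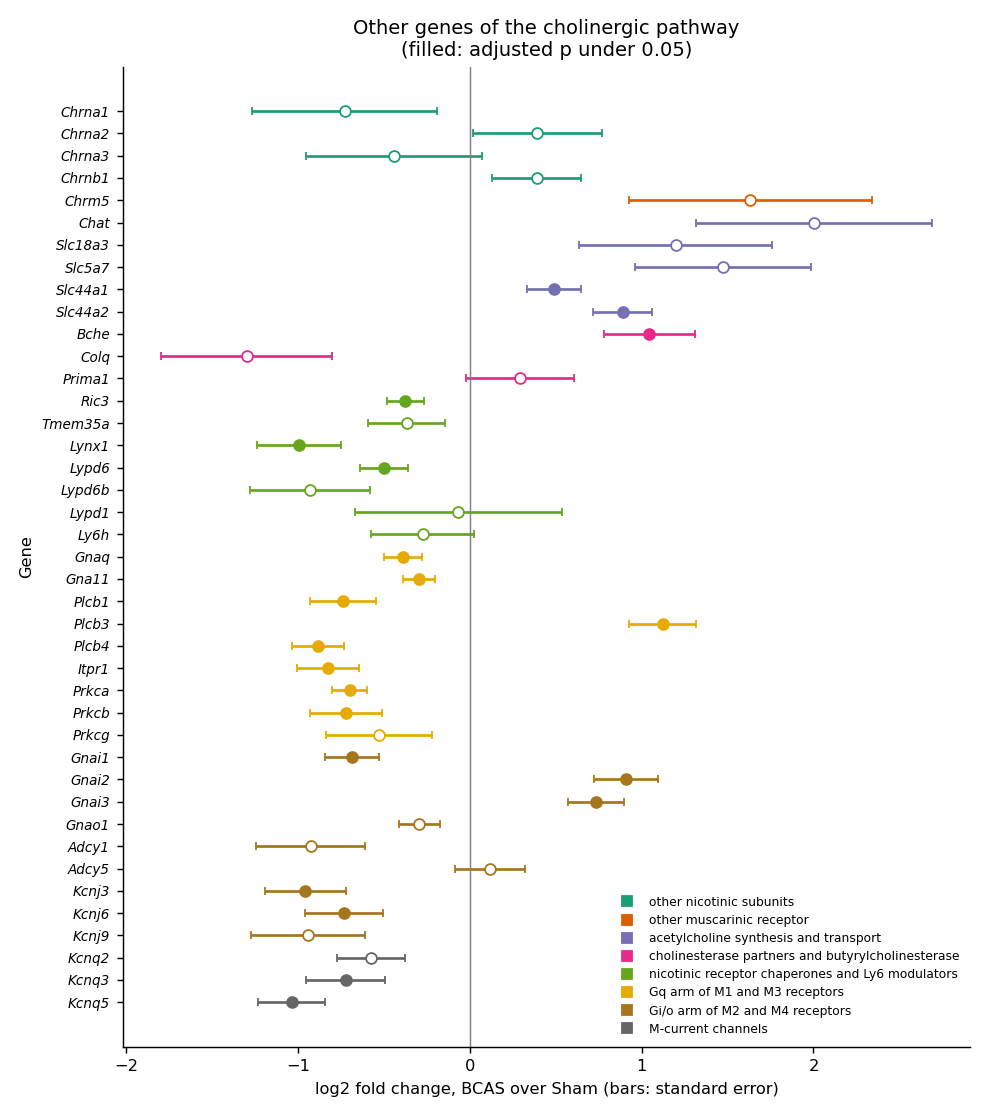
Log2 fold change (BCAS over Sham, horizontal axis) of the 41 tested genes of the cholinergic pathway outside the 10 (vertical axis), coloured by role, with bars of 1 standard error. Filled circles passed an adjusted p under 0.05: 15 lie below 0 and 6 above.

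The pattern of each cholinergic gene over the 8 libraries was compared with that of 12430 other genes averaging 100 counts or more. The Pearson correlations of log2 CPM below are descriptions over 8 libraries that share the difference between groups. Chrna4 was most like Gm2415 (r = 0.999) and Rnf11 (0.999), Chrnb2 like Asns (0.999) and Tmem121b (0.998), and Chrm3 like Tbr1, one of the 7 cortical excitatory neuron genes (0.998), and the glycine receptor subunit Glrb (0.998). Chrm1 was most like Prrg3 (0.998) and Dleu7 (0.997), Chrna7 like Cit (0.995) and Pgr (0.993), and Chrnb3 like the proteasome gene Psmd7 (0.997) and the mitochondrial import gene Timm23 (0.993). The closest genes to the remaining 4 had lower coefficients: Dcun1d2 (0.986) and Ggct (0.970) for Chrna5, Bag5 (0.981) and Casz1 (0.981) for Chrm2, Rbm24 (0.975) and the clock gene Per1 (0.966) for Chrm4, and Rimkla (0.984) and Tmem158 (0.978) for Ache. With the pan-neuronal mean, r was 0.996 for Chrna4, 0.985 for Chrna7, 0.982 for Chrnb2, 0.979 for Chrm1 and 0.977 for Chrm3, and was lowest for Chrm2 (0.806), Ache (0.732) and Chrm4 (0.601).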

How the data were processed

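The deposited files hold raw read counts per gene for 8 libraries, which the authors made with HISAT2 (mm10) and featureCounts from paired 150-base reads. The file headers name featureCounts 2.0.1 with GENCODE vM20 and no strand option, whereas the labels name 1.6.3. Gene names came from GENCODE M21 (54723 of 54752 IDs). Counts were filtered (filterByExpr), normalized by TMM and tested with edgeR 4.0.16 (quasi-likelihood, R 4.3.3, no covariate), with thresholds of adjusted p 0.05 and, where stated, log2 fold change 1. The study used limma and also DESeq2, both run here as alternatives (limma 3.58.1, DESeq2 1.42.0). CPM used TMM library sizes, RPKM divided CPM by annotated exon length, and ratios used counts plus 0.5, divided by exon length. Scripts were tested on simulated counts. Replicate numbers were not treated as pairs, since same-numbered Sham and BCAS mice gave no sign of pairing.

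The 10 genes and all lists were chosen with earlier results of these data known. Named pathway genes were up to 15 with the smallest p among those past adjusted p 0.05, the other receptors, Chat, Slc18a3, Slc5a7 and Bche, and, chosen after their values were seen, Ric3 and Slc44a1. The 2 genes most correlated with each of the 10 were also named. Library totals limit the precision of low counts, and the floor of 3 counts covers counting error only.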

Additional observations from a re-analysis of the deposited data

Results flagged for a closer look

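In 2 genes the lowest BCAS mouse stood apart from the other 3 by Dixon's ratio, the gap to the nearest mouse divided by the range of the group. For Chrna5 the ratio was 0.843, with BCAS mouse 1 at 0.659 CPM and the others between 1.58 and 1.75 CPM. For Chrnb3 it was 0.905, with BCAS mouse 1 at 4 counts and the others at 14 to 16. Both exceed the 95% critical value for 4 mice, which chance exceeds in about 1 of 20 groups, and 20 groups were examined here. BCAS mouse 1 was also lowest in the pan-neuronal list, at -1.52 relative to the Sham mean on the log2 scale.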

How the results depend on the processing

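The 10 estimates were below 0 in each alternative on the TMM and related scales. Chrnb3 passed in 19 of 19 alternatives, and could not be tested where every library had to hold 10 counts.

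Of all genes, 2097 passed both thresholds, 5490 the adjusted p alone, 744 when tested against a log2 fold change of 1, and 1644 to 2967 without 1 library. Of the 10 genes, 2 passed both thresholds, 1 with at least 10 counts in every library, 1 when tested against a log2 fold change of 1, 4 by adjusted p alone, and 1 to 4 without 1 library. Lower at adjusted p alone were 4, with 8 by DESeq2, 8 by limma-voom with sample quality weights (22.5% of all genes lower), and 1 to 8 without 1 library. Chrnb3 was the only one lower without Sham mouse 1, 2 or 4, and the 8 came without BCAS mouse 2. The causes were not tested. Relative to pan-neuronal genes 1 passed, 2 with excitatory genes held level (Chrnb3 and Ache), and 1 to 2 without 1 library (Ache again, without BCAS mouse 2).

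The equal-weight gap of nicotinic against muscarinic change was -0.37, but -0.0269 from summed levels, where Chrnb3 weighs little, and -0.45 to -0.29 without 1 library.

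Signs turned as follows. Chrm2 to Chrm1 (0.07) ran from -0.14 to 0.24 without 1 library, at -0.10 without Sham mouse 3, -0.14 without BCAS mouse 1 and -0.0267 without BCAS mouse 4. Chrna5 to Chrna4 (-0.16) ran from -0.31 to 0.0288, the latter without Sham mouse 4. Relative to pan-neuronal genes, Chrna4 (-0.07) was 0.20 with excitatory genes held level. On the same scale Chrm1 (0.00) ran from -0.0743 to 0.0508 without 1 library and Chrm2 (0.09) from -0.10 to 0.21, at -0.02 without Sham mouse 3.

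With a replicate block, on numbers that gave no sign of pairing (correlations of same-numbered deviations from -0.10 to 0.00), 4 of the 10 genes were lower as before, against 6.58% of all genes. Relative to pan-neuronal genes Chrm1 was at -0.000988 with the block. Of other pathway genes, 7 were lower with the block and 15 without it, 5 to 21 without 1 library. Those pathway alternatives were chosen after seeing the data.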

Other observations

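The spread among mice differed between genes and groups. Among Sham mice the coefficient of variation was lowest for Chrnb2 (2.18%), Chrm1 (4.53%) and Ache (5.82%) and highest for the accessory subunits Chrnb3 (38.1%) and Chrna5 (36.2%), which had the fewest counts. Among BCAS mice it was 28.4% for Chrnb2, 40.6% for Chrm1 and 31.6% for Ache. Chrm2 was the exception among the abundant genes, at 21.99% in Sham and 17.8% in BCAS mice. Whether the spread itself differed between the groups was not tested.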
